A study of Mus musculus with 10 samples.

Results

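The 10 genes described here run from the insulin receptor to the insulin-responsive glucose transporter and were measured in inguinal white adipose tissue (iWAT), the subcutaneous fat pad of the groin, of male C57BL/6 mice. They were *Insr*, *Irs1*, *Irs2*, *Pik3r1*, *Akt1*, *Akt2*, *Tbc1d4* and *Slc2a4* together with *Deptor* and *Ppp2r5b*, taken by gene symbol from the 51826 genes listed in every library, and all 10 were found and passed the filter on low counts in every comparison. The study asked whether a low-protein diet (LPD) eaten by fathers alters gene expression in the fat of their sons. The F1 offspring were 5 weeks old, were all fed the control diet (CD) and had CD-fed mothers: 3 had CD-fed fathers (F1 CD) and 3 had LPD-fed fathers (pLPD). The 3 mice of an F1 group had different mothers, so a litter and a mouse cannot be told apart. The F0 generation was 2 CD-fed and 2 LPD-fed males of 10–12 weeks, each the source of 1 library. The study treats the F0 males as the progenitors, and the labels tie no male to an offspring.

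Insulin binds its receptor, a tyrosine kinase on the cell surface, which then phosphorylates the insulin receptor substrates IRS1 and IRS2. These recruit phosphoinositide 3-kinase, whose regulatory subunit is encoded by *Pik3r1*, and the lipid it makes brings the kinases AKT1 and AKT2 to the membrane, where they are activated. In fat cells AKT phosphorylates TBC1D4, a brake on Rab GTPases, so that vesicles carrying the glucose transporter GLUT4, encoded by *Slc2a4*, move to the surface and glucose enters the cell. DEPTOR binds and inhibits the kinase mTOR, which acts both upstream and downstream of AKT, and *Ppp2r5b* encodes a regulatory B56 subunit of protein phosphatase 2A, an enzyme that removes phosphate from AKT and other proteins. RNA-seq measures the mRNA of these genes. It does not measure protein, phosphorylation or glucose uptake.

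Levels are given as reads on exons per 1000000 exon reads (CPM), scaled between libraries by TMM, with the mean ± SD over mice. The libraries held 6351075 to 10044546 exon reads, so a level of 3 reads, below which a gene cannot be told from absent, was 0.299 to 0.472 CPM, and this covers counting error only. The lowest member in any mouse, *Ppp2r5b*, had 250 reads. Adipocyte markers were abundant, as the tissue label has it: none of the 12 was at 0 in any library, and their summed level was 20141 to 28642 CPM. Other measures moved with the groups. The share of reads in protein-coding genes that lay in introns was 36.0% to 37.9% in the F0 and F1 CD libraries, but 48.4%, 41.8% and 40.7% in the 3 pLPD libraries. The summed level of 15 skeletal muscle markers was 1680 and 2581 CPM in F0 CD mice, 1127 and 814 CPM in F0 LPD mice and 47.9 to 200 CPM in the offspring, with at most 2 of the 15 at 0 in any library. The sum of 9 progenitor and fibroblast markers was 14281 to 23808 CPM in F1 CD mice, 10287 to 13000 CPM in pLPD mice and 3527 to 4376 CPM in F0 mice. Most of the F1 CD sum came from the collagen genes *Col1a1* and *Col3a1*, with means of 8152 and 10021 CPM. Between F0 CD and F1 CD mice 5 of the 9 had positive and 4 negative log2 fold changes. Among the 4, *Dcn* had means of 892 CPM in F0 CD and 504 CPM in F1 CD mice. In both F1 groups 1 mouse stood apart: the variance between F1 CD replicates 1 and 2 was 4.59 times that of counting error, and between replicate 3 and each of them it was 12.6 and 13.1 times, while pLPD replicates 2 and 3 differed by 4.81 times and replicate 1 from them by 8.70 and 9.73 times. The ratio was 5.95 between the F0 CD mice and 10.8 between the F0 LPD mice.

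The stretches upstream of *Irs1* and *Irs2* are shown because the mRNAs of these 2 substrates were lower in the offspring than in F0 males. Each is the 250 bases before the RefSeq transcription start (build GRCm38.p6, minus strand), chr1:82291440-82291689 for *Irs1* and chr8:11008930-11009179 for *Irs2*. Capitals mark the letters of an E box (CACGTG) or a GC box (GGGCGG) on either strand.
Irs1: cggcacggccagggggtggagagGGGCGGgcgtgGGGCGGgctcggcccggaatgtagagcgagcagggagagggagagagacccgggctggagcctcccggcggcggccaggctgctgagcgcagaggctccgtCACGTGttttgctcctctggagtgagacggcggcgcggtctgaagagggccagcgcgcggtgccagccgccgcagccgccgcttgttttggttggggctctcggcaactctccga
Irs2: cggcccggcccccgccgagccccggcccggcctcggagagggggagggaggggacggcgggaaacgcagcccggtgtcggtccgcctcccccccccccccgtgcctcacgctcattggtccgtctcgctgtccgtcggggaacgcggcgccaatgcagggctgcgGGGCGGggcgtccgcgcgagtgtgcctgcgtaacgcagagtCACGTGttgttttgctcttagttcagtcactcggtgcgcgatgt
Both windows held 1 E box, which 6.02% of the 32851 RefSeq windows of this length held, and the E box lay 115 bases before the start of *Irs1* and 44 bases before that of *Irs2*. *Irs1* had 2 GC boxes and *Irs2* had 1, a motif in 32.7% of windows. The FoxO letters TGTTTAC, in 3.17% of windows, were in neither. The RefSeq starts of *Irs1* and *Irs2* both lie upstream of the genes as the count files place them. These matches describe letters, and binding was not measured here. RefSeq windows for 7 of the 10 genes were in the table used, and those of *Insr*, *Slc2a4* and *Deptor* were not.

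Per kilobase of exon, the transporter was the most abundant member in 3 of the 4 groups. *Slc2a4* (ENSMUSG00000018566, mm10 chromosome 11, 69942539–69948188, minus strand) reached 56.1 ± 3.37 RPKM (reads per kilobase of exon per 1000000 reads; SD, n = 3) in F1 CD mice, 38.4 ± 8.85 RPKM in pLPD mice (SD, n = 3) and 47.9 ± 4.23 RPKM in F0 CD mice (SD, n = 2). In each of these groups its lowest mouse lay above the highest mouse of *Pik3r1*, the next gene. In F0 LPD mice the order was turned, with *Pik3r1* (mm10 chromosome 13, 101680563–101768217) at 36.6 ± 1.55 RPKM and *Slc2a4* at 32.6 ± 3.70 RPKM (SD, n = 2). *Akt2* came after these genes in the means of every group, at 22.0 to 29.3 RPKM, above its relative *Akt1* at 13.3 to 16.4 RPKM. The mice of *Akt2* overlapped those of *Pik3r1* in both F1 groups and those of *Slc2a4* in the F0 LPD group. The foot of the order differed between the generations: *Tbc1d4*, at 7.42 ± 0.0243 RPKM, overlapped *Ppp2r5b* at the bottom in F0 CD mice, whereas *Irs2* was lowest in F1 CD mice at 4.97 ± 1.23 RPKM and in pLPD mice at 5.75 ± 0.680 RPKM. *Irs2* overlapped *Tbc1d4* and *Ppp2r5b* in the pLPD mice. The library total behind RPKM was 1.87 to 2.08 times the exon reads in the F0 and F1 CD libraries and 2.24 to 2.60 times in the pLPD libraries, so RPKM levels are read within a group here. Only the limma alternative, given later, compares RPKM between groups. It does so with no further scaling between libraries and so carries this difference in totals.

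**Figure D1:**
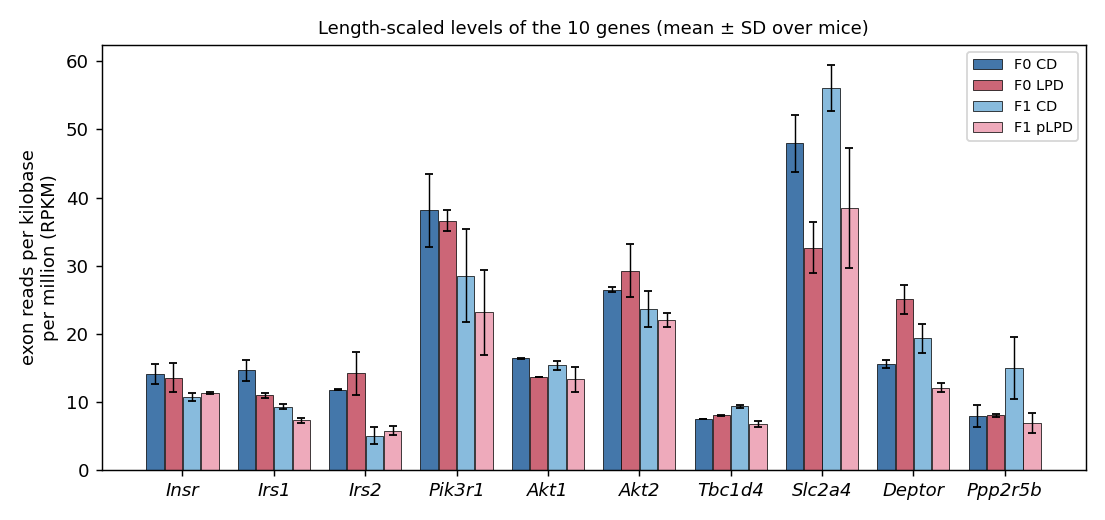
Deposited RPKM (exon reads per kilobase of exon per 1000000 reads, vertical axis) of the 10 genes in the 4 groups; bars are means and error bars SD over 2 (F0) or 3 (F1) mice. *Slc2a4* is highest in the F0 CD, F1 CD and F1 pLPD groups, and *Irs2* is lowest in both F1 groups at 4.97 and 5.75 RPKM.

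In the sons of LPD-fed fathers, *Deptor* and *Ppp2r5b* were lower than in the sons of CD-fed fathers, and no member was higher past the threshold. The test was edgeR's quasi-likelihood test with Benjamini-Hochberg adjustment over 14049 genes, two-sided, with an adjusted p under 0.05 as the threshold. Of the 10 members 2 passed as lower, where 1.02% of all genes did. None passed as higher, where 0.142% of all genes did, although 2 members were higher and 5 lower at an unadjusted p under 0.05, as 15.3% of all genes were in either direction, and DESeq2 also called 0 higher. The median log2 fold change of the members was −0.17, and that of all genes was 0.0074. In 6 members the 3 pLPD mice did not overlap the 3 CD mice (5 lower, 1 higher), as in 20.1% of all genes. The members were chosen with earlier results of these data known. Here and in the later comparisons, counts of members beside shares of all genes are therefore descriptions and no test of the list.

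**Figure D2:**
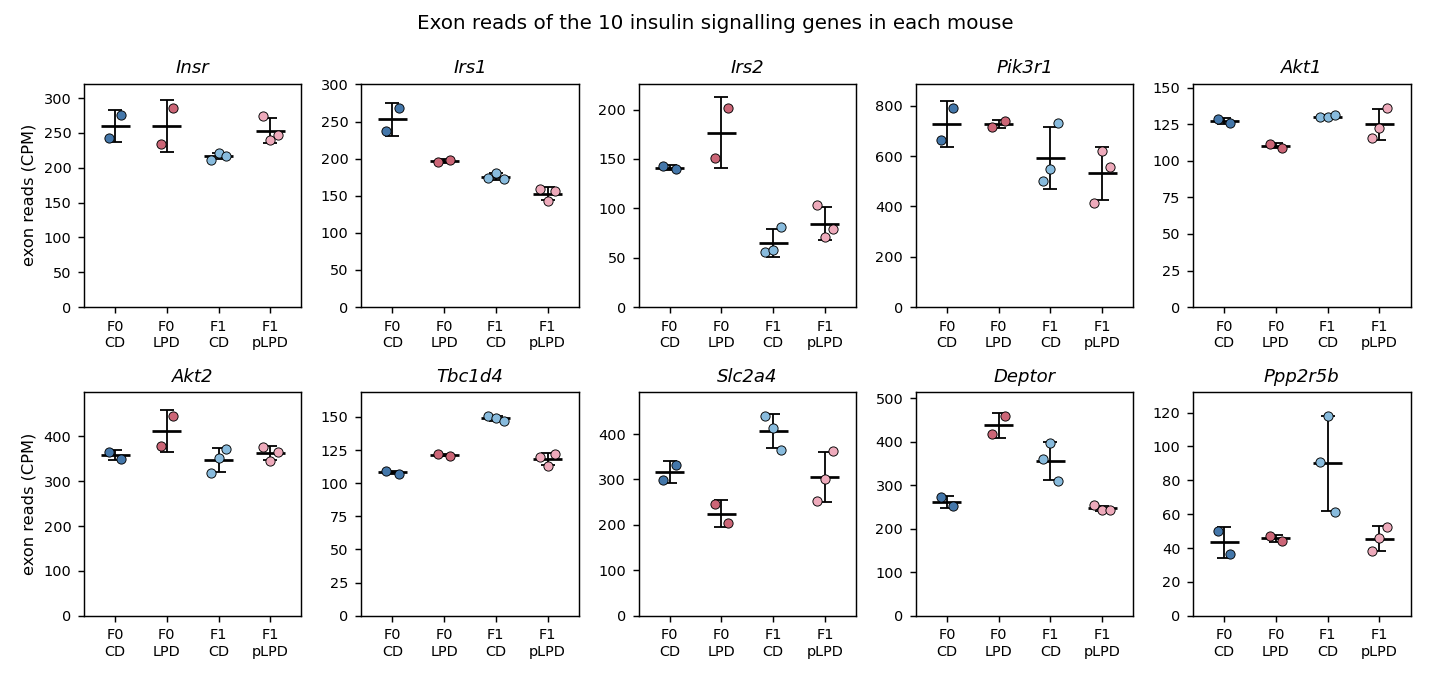
Exon reads per 1000000 (CPM, vertical axis from 0) of each gene in each mouse; points are mice, horizontal lines group means and error bars SD. The 2 F0 LPD mice and the 3 F1 CD mice are highest for *Deptor*, while *Ppp2r5b* is highest in the 3 F1 CD mice and between 36.7 and 52.7 CPM elsewhere.

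*Ppp2r5b*, the phosphatase subunit (ENSMUSG00000024777, chromosome 19, 6227765–6235872, minus strand), stood at 90.9, 118 and 61.3 CPM in the F1 CD mice and at 38.3, 45.7 and 52.7 CPM in the pLPD mice. All pLPD mice lay below all CD mice, but the CD mice spread widely and replicate 3 was close to the pLPD range. The means were 90.0 ± 28.3 and 45.6 ± 7.20 CPM (SD, n = 3 each), a log2 fold change of −0.98 ± 0.20 (SE, edgeR adjusted p = 0.0448). Without F1 CD replicate 3 it was −1.19 (adjusted p = 0.00087), and in the 5 fits that left out another mouse the call was lost, with the smallest log2 fold change in size, −0.73, (adjusted p = 0.168) without F1 CD replicate 2. When the share of reads on exons in each library entered the fit as a covariate it was −0.51 (adjusted p = 0.706). The intron share separated the same mice as the paternal diet did, so the 2 cannot be told apart.

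*Deptor*, the mTOR inhibitor (ENSMUSG00000022419, chromosome 15, 55112317–55259271, plus strand), was at 360, 397 and 310 CPM in the F1 CD mice and at 254, 243 and 244 CPM in the pLPD mice. The 3 pLPD mice were nearly equal and below every CD mouse. The means of 356 ± 43.9 and 247 ± 5.81 CPM (SD, n = 3 each) gave a log2 fold change of −0.52 ± 0.10 (SE, edgeR adjusted p = 0.0401). It was called in 1 of the 6 fits that left out a mouse, the fit without F1 CD replicate 3 (−0.61, adjusted p = 0.0044), and the log2 fold change was −0.43 without F1 CD replicate 2 (adjusted p = 0.197). With the exon share as a covariate the value was again −0.52 but the adjusted p was 0.433.

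The transporter and the Rab brake lay lower in every pLPD mouse than in any F1 CD mouse without passing the threshold. *Slc2a4* was at 439, 414 and 365 CPM in the F1 CD mice and at 253, 302 and 363 CPM in the pLPD mice. The highest pLPD mouse, replicate 3, nearly reached the lowest CD mouse. The means were 406 ± 37.7 and 306 ± 54.8 CPM (SD, n = 3 each), and the log2 fold change was −0.40 ± 0.13 (SE, edgeR adjusted p = 0.163). With the exon share as a covariate it was −0.035 (adjusted p = 0.971), where again the covariate and the paternal diet separate the same mice and cannot be told apart.

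*Tbc1d4* (ENSMUSG00000033083, chromosome 14, 101442360–101609191, minus strand) was at 150, 149 and 147 CPM in the F1 CD mice and 119, 113 and 122 CPM in the pLPD mice. The mice of each group were close together and the groups were well apart. The log2 fold change was −0.32 ± 0.077 (SE, edgeR adjusted p = 0.0703). It passed in 2 of 11 alternative analyses, among them a fit of all 4 groups (adjusted p = 0.0275). It passed in 0 of the 6 fits that left out a mouse, where the log2 fold change was −0.35 to −0.30. With the exon share as a covariate *Tbc1d4* did not pass either, and the covariate and the paternal diet separate the same mice and cannot be told apart.

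The receptor and its substrates did not move past the threshold. *Insr* (ENSMUSG00000005534, chromosome 8, 3122061–3279617) was at 212 to 222 CPM in the F1 CD mice and at 240 to 274 CPM in the pLPD mice, a log2 fold change of 0.23 ± 0.084 (SE, adjusted p = 0.212) with no overlap. *Irs1* (ENSMUSG00000055980, chromosome 1, 82233101–82291416) was at 172 to 181 CPM and 143 to 159 CPM, a log2 fold change of −0.19 ± 0.080 (SE, adjusted p = 0.285), also with no overlap. *Irs2* (ENSMUSG00000038894, chromosome 8, 10984681–11008458) was at 55.7, 58.2 and 80.9 CPM in the F1 CD mice and at 104, 70.7 and 79.3 CPM in the pLPD mice, and the groups overlapped (log2 fold change 0.39 ± 0.16, SE, adjusted p = 0.280, and −0.051 with the exon share as a covariate). An opposite-strand transcript within *Irs2*, 9530052E02Rik, had 99 to 242 reads, and whether strand was used in counting is not given in the sources used here. The phosphoinositide 3-kinase subunit and the AKT kinases were closest to 0: the log2 fold change of *Pik3r1* was −0.15 ± 0.17, that of *Akt1* (chromosome 12, 112653821–112674884) −0.053 ± 0.085 and that of *Akt2* (chromosome 7, 27591552–27640826) 0.066 ± 0.090 (SE, adjusted p from 0.724 to 0.827).

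Markers of other cell types moved between the F1 groups as well. Of 6 macrophage markers 4 were called lower in pLPD mice, and their summed level was 952 to 1167 CPM in F1 CD mice and 671 to 756 CPM in pLPD mice. Of 9 progenitor and fibroblast markers all 9 had negative log2 fold changes and 0 were called, with 7 lower at an unadjusted p under 0.05. Of 10 lymphocyte markers all 10 were positive and 0 were called, with 5 higher at an unadjusted p under 0.05. Of the 12 adipocyte markers and the 6 endothelial markers 0 were called, with 2 adipocyte markers higher and 3 endothelial markers lower at an unadjusted p under 0.05, and 2 of the 4 epithelial markers tested were called lower. Of the 11 muscle markers tested 0 were called, with 1 lower at an unadjusted p under 0.05. In a whole fat pad fewer cells of a type and less mRNA per cell cannot be told apart, and the part of these cells in the *Deptor* and *Ppp2r5b* differences was not tested.

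In the F0 males, which ate the diets themselves, *Deptor* was higher with the LPD and no member was lower past the threshold. The fit of these 4 libraries tested 14581 genes and called 1.18% of them higher and 1.32% lower. Of the members 1 passed as higher and 0 as lower, with 2 higher and 3 lower at an unadjusted p under 0.05 (15.7% of all genes in either direction) and 1 lower by DESeq2 (*Slc2a4*). In 7 members the 2 LPD mice did not overlap the 2 CD mice, as in 46.5% of all genes, so separation of 2 mice from 2 was common.

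*Deptor* was at 272 and 253 CPM in the F0 CD mice and at 418 and 459 CPM in the LPD mice. Both LPD mice were far above both CD mice, the means being 262 ± 13.9 and 438 ± 28.6 CPM (SD, n = 2 each). The log2 fold change was 0.74 ± 0.10 (SE, edgeR adjusted p = 0.0136), and it lost the call without F0 CD replicate 2 (0.69, adjusted p = 0.0978) but not without each of the other 3 mice. With 2 mice a group, every such fit leaves a single library on a side, which is assumed to vary like the other group, so these fits say little about stability. When reads on exons and introns were added together the log2 fold change was 0.36 (adjusted p = 0.101).

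*Slc2a4* was at 300 and 333 CPM in the F0 CD mice and at 245 and 203 CPM in the LPD mice. Both LPD mice were below both CD mice. The means were 316 ± 23.3 and 224 ± 29.6 CPM (SD, n = 2 each), a log2 fold change of −0.49 ± 0.12 (SE, edgeR adjusted p = 0.0730). DESeq2 gave an adjusted p of 0.025. Leaving out each mouse in turn gave log2 fold changes of −0.64 to −0.37, again with a single library on a side. GLUT4 is also made by skeletal muscle, whose 15 markers all had negative log2 fold changes in this comparison, 9 of them called lower. Adipocyte markers had 9 positive and 3 negative log2 fold changes, with 1 of 12 called lower. Of 6 macrophage markers 1 was called lower, as was 1 of 9 progenitor and fibroblast markers, and 1 of 10 lymphocyte markers was called higher. Of the 6 endothelial markers and the 1 epithelial marker tested 0 were called. The part of muscle in the *Slc2a4* values was not tested, nor was the part of any of these cells in the F0 *Deptor* difference.

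*Irs1* was at 237 and 269 CPM in the F0 CD mice and at 195 and 199 CPM in the LPD mice, a log2 fold change of −0.36 ± 0.10 (SE, edgeR adjusted p = 0.109). *Irs2* lay the other way, at 143 and 139 CPM with the CD and 151 and 202 CPM with the LPD (0.32 ± 0.13, adjusted p = 0.279). *Akt1* was at −0.20 ± 0.083, *Akt2* at 0.20 ± 0.11 and *Tbc1d4* at 0.17 ± 0.083 (log2 fold change, SE, adjusted p 0.277 to 0.453). *Insr*, *Pik3r1* and *Ppp2r5b* differed least, with log2 fold changes from −0.00089 to 0.084 (adjusted p 0.846 to 0.999).

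**Figure D3:**
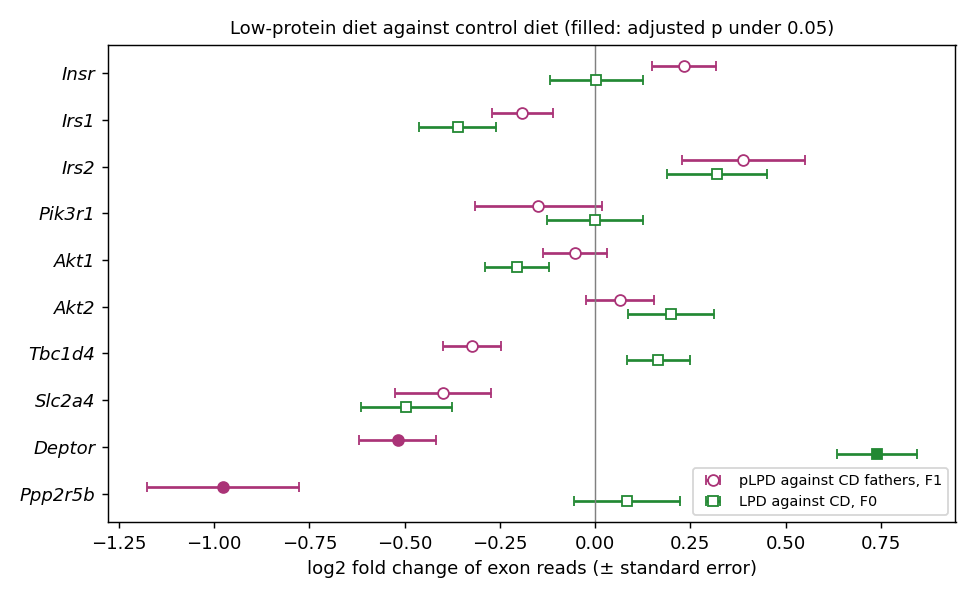
Log2 fold changes of exon reads (horizontal axis) for pLPD against CD fathers in F1 (circles, 3 mice against 3) and LPD against CD in F0 (squares, 2 against 2); bars are ± 1 SE and filled symbols passed an adjusted p under 0.05. *Deptor* lies at −0.52 in F1 and at 0.74 in F0, and *Slc2a4* lies at −0.40 and −0.49.

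The diet difference of *Deptor* had opposite signs in fathers' and sons' generations, and the 2 differences were themselves different. The interaction between generation and diet, fitted to the 10 libraries together over 15111 genes, gave −1.27 ± 0.15 on the log2 scale for *Deptor* (SE, edgeR adjusted p = 0.0054), that is, the F1 log2 fold change minus the F0 log2 fold change. It passed without each of the 10 mice in turn, from −1.35 to −1.18, where an F0 group left with 1 mouse is assumed to vary like the others. *Tbc1d4* also passed, at −0.50 ± 0.11 (SE, adjusted p = 0.0436), but in only 2 of the 10 fits that left out a mouse, those without F1 CD replicate 3 (adjusted p = 0.0373) and F1 pLPD replicate 1 (adjusted p = 0.0454). With the exon share as a covariate *Deptor* kept the call (−1.27, adjusted p = 0.0117) and *Tbc1d4* did not (−0.51, adjusted p = 0.122). So 2 of 10 members passed with a negative interaction, where 0.893% of all genes did, and 0 with a positive interaction, where 0.357% of all genes did (0 by DESeq2). The choice of members with earlier results known means that these shares do not test the list. At an unadjusted p under 0.05, which 12.5% of all genes had in either direction, 3 members were negative and 0 positive.

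*Ppp2r5b* did not pass this test, although it was called in F1 and not in F0: its interaction was −1.07 ± 0.31 (SE, edgeR adjusted p = 0.134), and −1.27 (adjusted p = 0.0138) without F1 CD replicate 3. For *Slc2a4* the 2 diet differences were alike in size, and the interaction was 0.088 ± 0.20 (SE, adjusted p = 0.914). This interval is wide and does not show that the 2 generations responded alike.

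Between the control groups 5 members differed past the threshold. Offspring of CD-fed fathers at 5 weeks, compared with CD-fed F0 males of 10–12 weeks, had less *Irs1* and *Irs2* mRNA and more *Tbc1d4*, *Ppp2r5b* and *Deptor* mRNA. Of the members 3 passed as higher, where 10.1% of all genes did, and 2 as lower, where 8.78% did. The groups did not overlap for 8 members, against 49.9% of all genes. Generation, age and the set of libraries are the same split of these mice and cannot be told apart. This comparison uses the same CD mice as both diet comparisons, so a high or low control enters each of them.

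*Irs2* had the largest log2 fold change in size of the 10 members: it was at 143 and 139 CPM in the F0 CD mice and at 55.7, 58.2 and 80.9 CPM in the F1 CD mice (means 141 ± 2.55 and 64.9 ± 13.9 CPM, SD). Every offspring was far below both older males, and the log2 fold change was −1.12 ± 0.18 (SE, edgeR adjusted p = 0.00091). In F1 CD mice *Irs2* had 413, 503 and 602 exon reads, and its opposite-strand transcript 9530052E02Rik had 99 to 242 reads over the series. Whether strand was used in counting is not given, and the part of this transcript in the *Irs2* exon and intron values was not tested. *Irs1* fell from 237 and 269 CPM to 174, 181 and 172 CPM, a log2 fold change of −0.53 ± 0.087 (SE, adjusted p = 0.0012). Both substrates were called in all 11 alternative analyses and without each of the 10 mice.

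*Tbc1d4* was at 109 and 107 CPM in the F0 CD mice and at 147 to 150 CPM in the F1 CD mice, a log2 fold change of 0.46 ± 0.077 (SE, edgeR adjusted p = 0.0013). *Ppp2r5b* was at 49.9 and 36.7 CPM in the F0 CD mice and at 61.3 to 118 CPM in the F1 CD mice (1.06 ± 0.22, adjusted p = 0.0055). *Deptor* was at 272 and 253 CPM and at 310 to 397 CPM (0.44 ± 0.11, adjusted p = 0.0132). Of the 11 alternative analyses, *Tbc1d4* was called in 11, *Ppp2r5b* in 10 and *Deptor* in 9. The sign was kept in 9 of them for *Tbc1d4*, in 11 for *Ppp2r5b* and in 10 for *Deptor*. In these 3 genes the F1 CD mice were the higher group, and they are also the group against which the pLPD mice were compared. *Slc2a4* (0.36 ± 0.14, adjusted p = 0.0969) and *Insr* (−0.26 ± 0.10, adjusted p = 0.104) were separated without passing, and *Akt1* (0.035) and *Akt2* (−0.041) were near 0. Of the 15 muscle markers 14 were called lower in the offspring, with a median log2 fold change of −3.75. All 12 adipocyte markers had negative log2 fold changes (median −0.41), and 6 were called lower. Of 9 progenitor and fibroblast markers 4 were called higher and 1 lower. Of the endothelial markers 1 was called higher, as were 1 lymphocyte marker and 2 of the 4 epithelial markers tested, and 0 macrophage markers were called. The part of these cells in the member differences was not tested.

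Across all 4 groups the members had different orders. *Irs1* was highest in F0 CD, then F0 LPD, F1 CD and F1 pLPD, with no overlap between neighbours in that order. *Slc2a4* was highest in F1 CD, then in F0 CD and F1 pLPD, which overlapped, and lowest in F0 LPD. *Deptor* was highest in F0 LPD, then F1 CD, and lowest in F0 CD and F1 pLPD, which overlapped. *Ppp2r5b* was high in F1 CD alone, and the other 3 groups overlapped at means of 43.3 to 45.7 CPM.

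The libraries were made from RNA depleted of ribosomal RNA, so reads in introns were also counted, and for several members they made up a large share of all reads. Introns held 58.4% of the reads of *Tbc1d4*, 43.5% of those of *Pik3r1* and 24.1% of those of *Deptor*, against 2.81% of those of *Slc2a4*. Intron reads are largely from unspliced RNA, and their levels (intron CPM) were tested with the same model.

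In F0 the intron reads of 4 members were lower with the LPD, although none of the 4 was called lower in exon reads. This fit called 2.12% of 14334 genes lower and 1.36% higher, and 0 members were higher, with *Akt2* (0.37) at an edgeR adjusted p of 0.0836. *Pik3r1* was at 1105 and 1184 intron CPM in CD mice and at 464 and 446 intron CPM in LPD mice, a log2 fold change of −1.32 ± 0.077 (SE, edgeR adjusted p = 4.6e-05). Its exon reads differed by a log2 fold change of −0.00089 in the same mice.

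*Deptor* intron reads were at 247 and 228 intron CPM with the CD and at 141 and 144 intron CPM with the LPD, a log2 fold change of −0.73 ± 0.081 (SE, edgeR adjusted p = 0.0015). Its exon reads went the other way, at 0.74. *Tbc1d4* was at 355 and 381 against 240 and 226 intron CPM (−0.65 ± 0.079, adjusted p = 0.0023), and *Irs1* at 274 and 277 against 207 and 191 intron CPM (−0.46 ± 0.079, adjusted p = 0.0131). *Irs1* was the only one of the 4 whose exon log2 fold change was negative by more than its SE. The difference between exon and intron changes was not itself tested, and other transcripts inside the introns are counted with them. The listed genes that overlap *Pik3r1* and *Irs1* had 0 reads in every library, and *Gm9920*, which overlaps *Deptor*, had 10 to 31 reads.

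**Figure D4:**
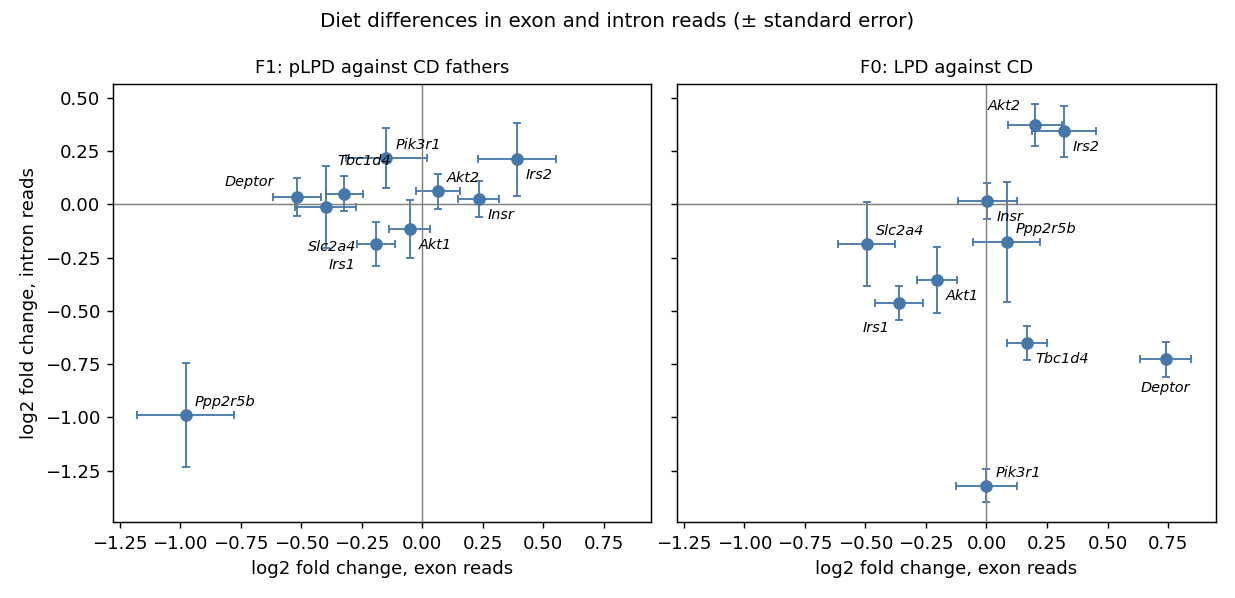
Log2 fold changes of exon reads (horizontal axis) against those of intron reads (vertical axis) for pLPD against CD fathers in F1 (left) and LPD against CD in F0 (right); points are genes and bars ± 1 SE. In F0 *Pik3r1* lies at −0.00089 in exons and −1.32 in introns, and *Deptor* at 0.74 and −0.73.

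In F1 the intron reads of 0 members were called, where 0.424% of 13456 genes were. The largest log2 fold change in size among the members was that of *Ppp2r5b* (−0.99 ± 0.24, SE, edgeR adjusted p = 0.0996). It was at 9.83, 9.63 and 11.7 intron CPM in CD mice and 4.52, 5.14 and 6.09 intron CPM in pLPD mice, from only 22 to 56 reads a library over the series. Its intron and exon log2 fold changes were close. *Deptor* intron reads were at 130, 132 and 118 intron CPM in CD mice and 132, 137 and 120 intron CPM in pLPD mice (0.034 ± 0.088, adjusted p = 0.904), while its exon reads were lower. *Tbc1d4* and *Slc2a4* had log2 fold changes of 0.051 and −0.014 in introns.

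The intron differences of *Pik3r1*, *Deptor* and *Tbc1d4* differed between the generations, with interactions of 1.55 ± 0.21, 0.77 ± 0.12 and 0.71 ± 0.12 on the log2 scale (SE, edgeR adjusted p = 0.0022, 0.0075 and 0.0116), where 0.715% of 14823 genes were called with a positive sign. For *Pik3r1* the F1 levels were 603, 705 and 631 intron CPM in CD mice and 557, 876 and 827 intron CPM in pLPD mice, between the F0 CD and F0 LPD levels in each mouse. For *Tbc1d4* the F0 CD mean was 368 intron CPM, against 233 in F0 LPD, 234 in F1 CD and 243 in pLPD mice. For *Deptor* it was 237 against 143, 127 and 130 intron CPM. The same F0 CD mice enter the F0 diet, interaction and control comparisons, so these calls are not separate results. Between the control groups, 5 members were lower in the offspring in introns, where 6.72% of genes were: *Deptor* by −0.91, *Pik3r1* by −0.82, *Irs1* by −0.70, *Irs2* by −0.68 and *Tbc1d4* by −0.65 in log2 fold change. *Akt2* was higher, at 0.40 (edgeR adjusted p = 0.0107), where 5.26% of genes were. *Tbc1d4* and *Deptor* were higher in exon reads and lower in intron reads in this comparison.

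Other genes of the pathway were read from 7 lists of 88 genes, which covered proteins at the receptor, phosphoinositide kinases and phosphatases, AKT phosphatases and inhibitors, mTOR complexes, AKT substrates, GLUT4 vesicle proteins and other glucose transporters, and 87 of them were tested. In F1, 44 had positive and 43 negative log2 fold changes, with a median of 0.0012, and 1 was called lower, where 1.02% of all genes were. It was *Slc2a5*, which encodes the fructose transporter GLUT5: 83.7, 84.4 and 44.4 CPM in F1 CD mice and 23.4, 26.2 and 33.0 CPM in pLPD mice (log2 fold change −1.36 ± 0.22, SE, edgeR adjusted p = 0.0196). F1 CD replicate 3 was again the CD mouse nearest to the pLPD mice. *Slc2a5* was called in 2 of the 6 fits that left out a mouse, and with the exon share as a covariate it was −0.95 (adjusted p = 0.520). No gene was called higher, where 0.142% of all genes were. At an unadjusted p under 0.05, which 15.3% of all genes had in either direction, 9 were higher and 5 lower. The 4 other B56 subunit genes on these lists had log2 fold changes of −0.025 to 0.13 in F1 and were not called.

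In F0, 41 of the 87 were positive and 46 negative, and 1 was called lower, where 1.32% of all genes were. This was *Slc2a13*, a transporter of myo-inositol, at 36.6 and 37.1 CPM with the CD and 22.4 and 20.8 CPM with the LPD (log2 fold change −0.77 ± 0.11, SE, edgeR adjusted p = 0.0136). None was called higher, where 1.18% of all genes were. At an unadjusted p under 0.05, which 15.7% of all genes had in either direction, 6 were higher and 8 lower. For the interaction 0 of 87 were called in either direction by edgeR, where 0.357% of all genes were called positive and 0.893% negative. At an unadjusted p under 0.05, which 12.5% of all genes had in either direction, 6 were positive and 6 negative.

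Between the control groups 5 of the 87 were higher and 12 lower in the offspring, where 10.1% of all genes were higher and 8.78% lower. The adaptor *Grb14*, which binds and inhibits the insulin receptor, fell from 35.6 ± 5.33 CPM (SD, n = 2) in F0 CD mice to 16.4 ± 3.62 CPM (SD, n = 3) in F1 CD mice (log2 fold change −1.12), and *Slc2a13* fell by a similar log2 fold change of −1.08. The translation repressor gene *Eif4ebp1* (−0.66), the GLUT4 vesicle aminopeptidase gene *Lnpep* (−0.59), the phosphodiesterase gene *Pde3b* (−0.47) and the kinase gene *Sgk1* (−0.46) were lower too. The pseudokinase genes *Trib2* (0.67) and *Trib1* (0.44) and the adaptor gene *Sh2b2* (0.49) were higher. Of the 17 GLUT4 vesicle genes 3 were lower and 0 higher, and of the 13 mTOR genes 4 were lower and 1 higher.

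Genes whose log2 CPM closely followed *Slc2a4* over the 10 libraries, among 9938 genes whose mean was 10 CPM or more, were *Mlxipl* (Pearson r = 0.97), *Acly* (0.96), *Tkt* (0.95) and *Sntb2* (0.95). *Mlxipl* encodes the glucose-responsive transcription factor ChREBP, *Acly* encodes ATP citrate lyase and *Tkt* encodes transketolase. For *Ppp2r5b* they were *Lss* (0.97), which encodes lanosterol synthase, *Fam63b* (0.97), *Ctsd* (0.96), which encodes cathepsin D, *Zdhhc14* (0.96) and *Sfrp2* (0.96). These values describe 10 libraries that share their groups, ages and depths, and carry no test.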

How the data were processed

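Total RNA from iWAT was depleted of ribosomal RNA, made into directional libraries and sequenced from both ends, and mapping to mm10 was done by the authors with the CLC software. The counts deposited by the authors are whole numbers of reads per gene on exons (total and unique), introns or both, with no normalization. The RPKM values deposited by the authors are total exon reads divided by exon length and by a library total larger than the exon reads, and were used for levels between genes and for the limma alternative. Read depth was 6351075 to 10044546 exon reads a library, and the biological coefficient of variation was 11.8% in F1 and 8.73% in F0. Replicates are separate mice, whose counts differed beyond counting error.

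The 4 groups came from the sample labels. Total exon reads were tested in R 4.3.3 with edgeR 4.0.16 (filterByExpr, TMM, quasi-likelihood F test, two-sided, Benjamini-Hochberg adjustment over all genes tested). F1 and F0 each had a fit of their own, and the interaction and the comparison of control groups came from a fit of all 10 libraries. Each SE is the absolute log2 fold change over the root of its F statistic. CPM levels use TMM factors over all 10 libraries. Per gene, an exact permutation test could not go below 0.1 in F1 or 0.333 in F0, so none is given. The same model was applied to intron reads. The scripts were tested on simulated data.

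All 10 members are described. Of the other pathway genes, those past the threshold were named, at most 10 a comparison by size, and the 5 genes most like *Slc2a4* and *Ppp2r5b*. Of the genes this rule names, 2 are not reported here. The members, gene lists and marker lists were chosen with earlier results of these data known. The alternatives were DESeq2 1.42.0, its size factors in edgeR, no filter, a filter of at least 10 counts in every sample, the replicate block, unique exon reads, exon and intron reads together, intron reads only, limma 3.58.1 on log2(RPKM + 0.1), each library's exon share as a covariate, all 4 groups in a single fit for the diet comparisons, only the 5 CD libraries for the comparison of control groups, and leaving out each mouse. Columns of the authors' other expression values were not used.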

Additional observations from a re-analysis of the deposited data

Results flagged for a closer look

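For *Deptor* the log2 fold change with the low-protein diet differed between F1 and F0 by −1.27 in exon reads, by the test of the interaction of generation and diet (edgeR adjusted p = 0.0054). For *Tbc1d4* the same test gave −0.50 in exon reads (edgeR adjusted p = 0.0436). In intron reads the difference between F1 and F0 passed the test with the opposite sign for *Deptor*, at 0.77, and for *Tbc1d4*, at 0.71, and it was 1.55 for *Pik3r1* (edgeR adjusted p = 0.0075, 0.0116 and 0.0022). Generation, age and library set cannot be told apart. With groups of 2 and 3 mice, single mice were not screened as outliers.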

How the results depend on the processing

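In the analysis as reported, 20 genes were higher and 144 lower with paternal LPD in F1, 172 and 192 with LPD in F0, 54 and 135 by the interaction, and 1531 and 1326 in F1 CD against F0 CD mice. The members passed as 0 higher and 2 lower, 1 and 0, 0 and 2, and 3 and 2 in these 4 comparisons. The interaction of *Deptor* passed under all 10 alternatives, in the opposite direction with intron reads only, and *Irs1* and *Irs2* passed as lower in F1 CD than in F0 CD mice under all 11. The F1 calls were less stable: *Deptor* passed under 8 of 11 alternatives and *Ppp2r5b* under 7 of 11. Only limma on RPKM moved the median log2 fold change of all genes by more than 0.1, to −0.147 in F1 and −0.118 between the control groups. The cause of the moves below was not tested, and all values named for genes are log2 fold changes.

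With DESeq2, F1 counts were 74 higher and 301 lower, interaction counts 110 and 243, 1 member was lower in F0, and *Pik3r1* in F0 turned to 0.00019. With DESeq2 size factors in edgeR, *Pik3r1* in F0 turned to 0.00020. With no filter, counts were 234 and 564 in F1, 633 and 710 in F0 and 314 and 576 by the interaction, with 4 members lower in F1 and 2 higher and 2 lower in F0, and *Pik3r1* in F0 turned to 0.0018. With at least 10 counts in every sample, *Insr* in F0 turned to −0.0017. With unique exon reads, 42 genes were higher in F1 and *Akt2* turned to 0.0086 between the control groups. With all 4 groups in a single fit, counts were 62 and 277 in F1 and 110 and 65 in F0.

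In F1 the replicate numbers showed no pairing of the mice. Deviations from the group mean correlated at 0.0718, 0.001 and 0.0175 for same-numbered mice and at −0.0854 to 0.0673 for differently numbered mice. In F0 the value was 0.0599, but the deviations of 2 mice from their mean mirror each other, so it cannot decide whether mice were paired. With the replicate block, 48 genes were higher in F1, 656 higher and 735 lower in F0 (2 members each way), and 83 higher by the interaction, where 1 member was lower, and in F0 *Insr* was −0.00011 and *Pik3r1* 0.0048.

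With exon and intron reads together, no member passed in F1 (0 lower) or as higher in F0 (0), 1 was lower by the interaction, and 1 was higher and 4 lower between the control groups. The share of all genes called in this fit is not given here, so these counts describe the members only and are no result about the list. *Pik3r1* turned to 0.024 in F1 and 0.55 by the interaction, *Tbc1d4* to −0.34 in F0, 0.25 by the interaction and −0.23 between the control groups, and *Akt2* to 0.029 there. With intron reads only, 35 genes were lower in F1, 304 lower in F0, 106 higher and 83 lower by the interaction and 780 higher between the control groups. Members then passed as 0 lower in F1, 0 higher and 4 lower in F0, 3 higher and 0 lower by the interaction, and 1 higher and 5 lower between the control groups. In F1 *Pik3r1* was 0.22, *Tbc1d4* 0.051 and *Deptor* 0.034, and in F0 *Tbc1d4* was −0.65, *Ppp2r5b* −0.18 and *Deptor* −0.73. By the interaction *Irs2* was −0.12, *Pik3r1* 1.55, *Tbc1d4* 0.71 and *Deptor* 0.77. Between the control groups *Akt2* was 0.40, *Tbc1d4* −0.65, *Deptor* −0.91, *Ppp2r5d* 0.061, *Vamp2* 0.84 and *Sort1* 0.31.

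With limma on log2(RPKM + 0.1), 2 genes were higher in F1, with 1 member lower, 30 higher and 52 lower in F0, 9 higher and 65 lower by the interaction, with 1 member lower, and 702 higher between the control groups. *Akt2* in F1 was −0.094, *Insr* in F0 −0.057, *Irs2* and *Slc2a4* by the interaction −0.022 and −0.015, and *Akt1* between the control groups −0.093. With exon share as a covariate, 1 gene was higher and 10 lower in F1, 0 members among them, 473 higher and 572 lower in F0, with 2 members lower, and 1 member was lower by the interaction. *Irs2* was −0.051, *Pik3r1* 0.25 and *Akt1* 0.10 in F1, *Insr* was −0.047 in F0, and *Irs2* was −0.33 and *Pik3r1* 0.27 by the interaction.

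Leaving out each mouse in turn gave 1 to 140 genes higher and 17 to 370 lower in F1, 68 to 281 and 37 to 223 in F0, 5 to 132 and 14 to 263 by the interaction, and 453 to 1592 and 340 to 1441 between the control groups. Members lower were 0 to 2 in F1, 0 to 1 in F0 and 1 to 3 by the interaction, and members higher 0 to 2 in F0 and 1 to 3 between the control groups. Some values near 0 then changed sign: in F0 *Insr* (−0.15 to 0.14), *Pik3r1* (−0.12 to 0.14) and *Ppp2r5b* (−0.12 to 0.32), in F1 *Pik3r1* (−0.29 to 0.030) and *Akt1* (−0.12 to 0.00092), by the interaction *Irs2* (−0.14 to 0.29), *Slc2a4* (−0.051 to 0.23) and *Pik3r1* (−0.29 to 0.027), and between the control groups *Akt2* (−0.099 to 0.018).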
